A study of Mus musculus with 16 samples.

Results

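The comparison described here sets the cortex of mice deleted for Trrap in forebrain neurons against the cortex of control mice. Its members are the 8 cortical libraries among the 16 RNA-seq libraries of the series, chosen by the tissue and genotype in the sample labels. The 4 control cortices came from mice 55, 58, 63 and 64 (Trrap Fl/+; Camk2-Cre tg) and the 4 Trrap-FBΔ cortices from mice 57, 59, 60 and 61 (Trrap Fl/Fl; Camk2-Cre tg). All mice were 10 days old and of a mixed C57BL6/J-129sv background, and both groups carried the Cre transgene. The control mice had 1 floxed and 1 wild-type Trrap allele. By sex, 2 controls were female and 2 male, and 3 Trrap-FBΔ mice were female and 1 male. Cre was under the promoter of Camk2a, a gene of forebrain glutamatergic neurons, whereas the RNA was taken from whole tissue, so that glia, vessels and interneurons were sequenced together with the neurons that the deletion targets.

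Trrap is a large scaffold protein without catalytic activity of its own. It is shared by the SAGA and TIP60 complexes, which acetylate histones H3 and H4 and other proteins, and it docks these complexes to transcription factors such as Myc and the E2F and p53 families. At the age studied, cortical neurons extend axons and dendrites and form synapses, oligodendrocyte precursors divide and begin to myelinate, and the brain makes its own cholesterol. The comparison asked which groups of genes were higher or lower in the mutant cortex, in particular outside the microtubule genes.

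Between 28743866 and 48761429 reads were counted on genes per library. Expression is given as CPM, counts per 1000000 counts of the library total, with totals adjusted by the trimmed mean of M values, and in each list of 4 values the control order is mouse 55, 58, 63 and 64 and the Trrap-FBΔ order is mouse 57, 59, 60 and 61. The first principal component, with 41.3% of the variance, separated the groups, whereas control mouse 55, the library with the fewest reads, stood apart on the second (14.5%). The targeted gene, Trrap, was at 167, 149.5, 131 and 141 CPM in the controls and at 117, 131, 130.1 and 140.2 CPM in the libraries labelled Trrap-FBΔ. These values overlapped (147 ± 15.3 and 129.6 ± 9.72, SD, n = 4 each; exact permutation test, 2-sided, p = 0.086, where the smallest p possible is 0.0286). Counts over the whole gene therefore did not check the labels, which all directions below follow. Glutamatergic neuron markers were present in every library, with the vesicular glutamate transporter Slc17a7 between 859.6 and 1170.4 CPM.

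Of 18268 genes tested, 6090 were differentially expressed genes (DEGs, adjusted p under 0.05 in the quasi-likelihood test of edgeR after Benjamini-Hochberg adjustment), or 33.3%. Among them 2872 (15.7%) were higher and 3218 (17.6%) lower in the Trrap-FBΔ cortex, and the median log2 fold change over all genes tested was 0.001. Which direction prevailed depended on the scaling, since 52.7% of the DEGs were higher with upper-quartile normalization and 47.2% with the scaling used here. Changes beyond 2-fold were more often rises (285 DEGs) than falls (98 DEGs). Conversely, 74% of the 100 DEGs with the smallest p fell. With genes ranked by mean CPM and cut into 5 equal bins, 14.2% rose and 26.5% fell in the highest bin, and 11.7% rose and 4.43% fell in the lowest. The groups did not overlap in CPM for 32.7% of all genes tested.

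Genes were then grouped into 60 lists of pathways, complexes, families and cell types, which are described by their counts of DEGs beside the shares of 15.7% higher and 17.6% lower over all genes. In 46 lists more members fell than rose and in 7 more rose than fell. The lists with the highest shares of falls were sterol synthesis (95%), mitosis (87.5%), neuronal intermediate filaments (85.7%) and microglia (81.2%). The highest shares of rises were found among circadian clock genes (50%), immediate early genes (35%), and the lysosome and SAGA/TIP60 lists (33.3% each). Counts of 3 or fewer in a list often changed when a library was left out.

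**Figure D1:**
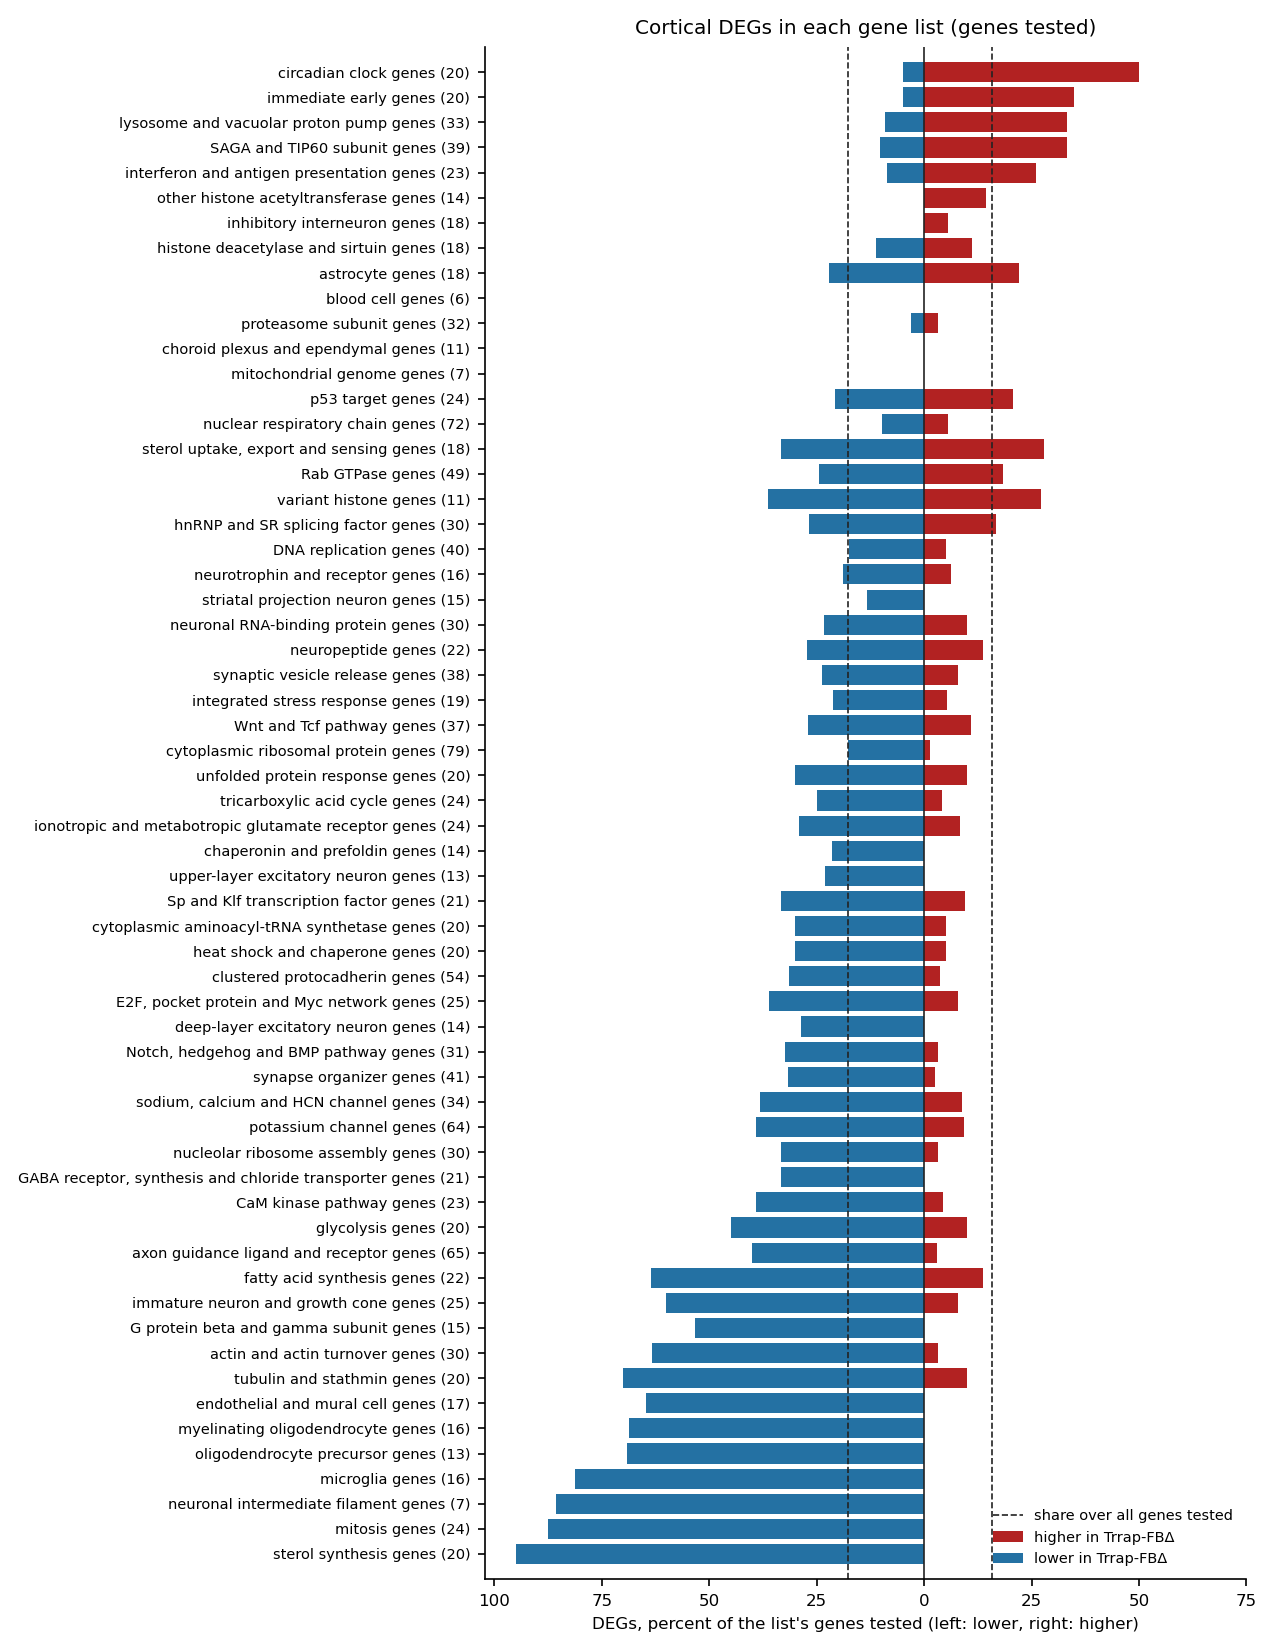
Share of the genes tested in each of the 60 lists that were DEGs, in percent, with falls to the left in blue and rises to the right in red, and the number of genes tested in parentheses. Dashed lines mark the shares over all genes tested, 15.7% higher and 17.6% lower. The bars of sterol synthesis, mitosis and microglia genes reach beyond 80% on the left, and that of the circadian clock genes reaches 50% on the right.

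The largest rises included keratin, vesicle and channel genes. By the rule for named genes, the 10 largest rises among well-counted protein-coding genes with non-overlapping groups were in Krt12, Krt9, Cabp7, Rab26, Ano2, Adam33, Cacng6, Plk5, Dnah1 and Sult1a1, with log2 fold changes from 1.83 to 1.27. Rab26 (chromosome 17, 24527241 to 24534210, GRCm38), a small GTPase of secretory and synaptic vesicles, was at 15.4, 18.3, 19.5 and 20.9 CPM in controls and at 52.6, 48.0, 51.2 and 50.3 CPM in Trrap-FBΔ. Its lowest mutant value was far above its highest control value (log2 fold change 1.45, standard error 0.082, edgeR adjusted p = 3.0e-06). Cabp7, a calcium-binding protein of the calneuron type, was at 8.97, 8.74, 9.51 and 16.1 CPM in controls and at 31.2, 29.4, 30.4 and 30.7 CPM in Trrap-FBΔ, with control mouse 64 above the other controls. The keratin gene Krt12, known from the corneal epithelium, was at 4.41, 4.63, 1.90 and 1.83 CPM in controls and at 11.8, 12.1, 11.7 and 9.50 CPM in Trrap-FBΔ. Another keratin gene, Krt9, known from the skin of palms and soles, rose from 3.16 ± 0.90 to 9.97 ± 2.27 CPM (SD, n = 4 each). Dnah1, a dynein heavy chain of motile cilia, rose from 4.60 ± 0.652 to 11.1 ± 1.76 CPM. For the chloride channel gene Ano2 the groups were separated by a narrow margin, since Trrap-FBΔ mouse 57 was at 2.18 CPM and control mouse 55 at 2.01 CPM.

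The 10 largest falls were in Pttg1, Dkkl1, Prph, Dpysl3, Cd24a, Tubb5, Tppp3, Ahnak2, Nefh and Tubb3, with log2 fold changes from -2.13 to -1.29. Tubb5, Tubb3, Tppp3 and Dpysl3 encode tubulins and microtubule partners. Pttg1 (chromosome 11, 43420250 to 43426251), which encodes securin, the inhibitor of separase in mitosis, was at 7.77, 9.06, 8.33 and 8.83 CPM in controls and at 1.93, 1.66, 1.82 and 2.30 CPM in Trrap-FBΔ, or 22.8% of control by the fitted fold change. Dkkl1 (chromosome 7, 45207519 to 45212147), a secreted relative of the Dickkopf Wnt antagonists, was at 9.89, 10.6, 10.7 and 9.72 CPM in controls and at 3.11, 2.25, 2.42 and 2.96 CPM in Trrap-FBΔ. Cd24a, a surface glycoprotein of immature neurons and other cells, was at 209, 131, 159 and 145 CPM in controls and at 64.1, 51.3, 59.3 and 64.5 CPM in Trrap-FBΔ. Control mouse 55 was the highest of all for Cd24a. Ahnak2, a large scaffold protein, fell from 5.97 ± 1.01 to 2.33 ± 0.193 CPM (SD, n = 4 each). Adjusted p-values of these 20 genes lay between 2.9e-06 for Pttg1 and 0.0014 for Ano2 by the edgeR test, and all 20 remained DEGs when any 1 of the 8 libraries was left out.

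**Figure D2:**
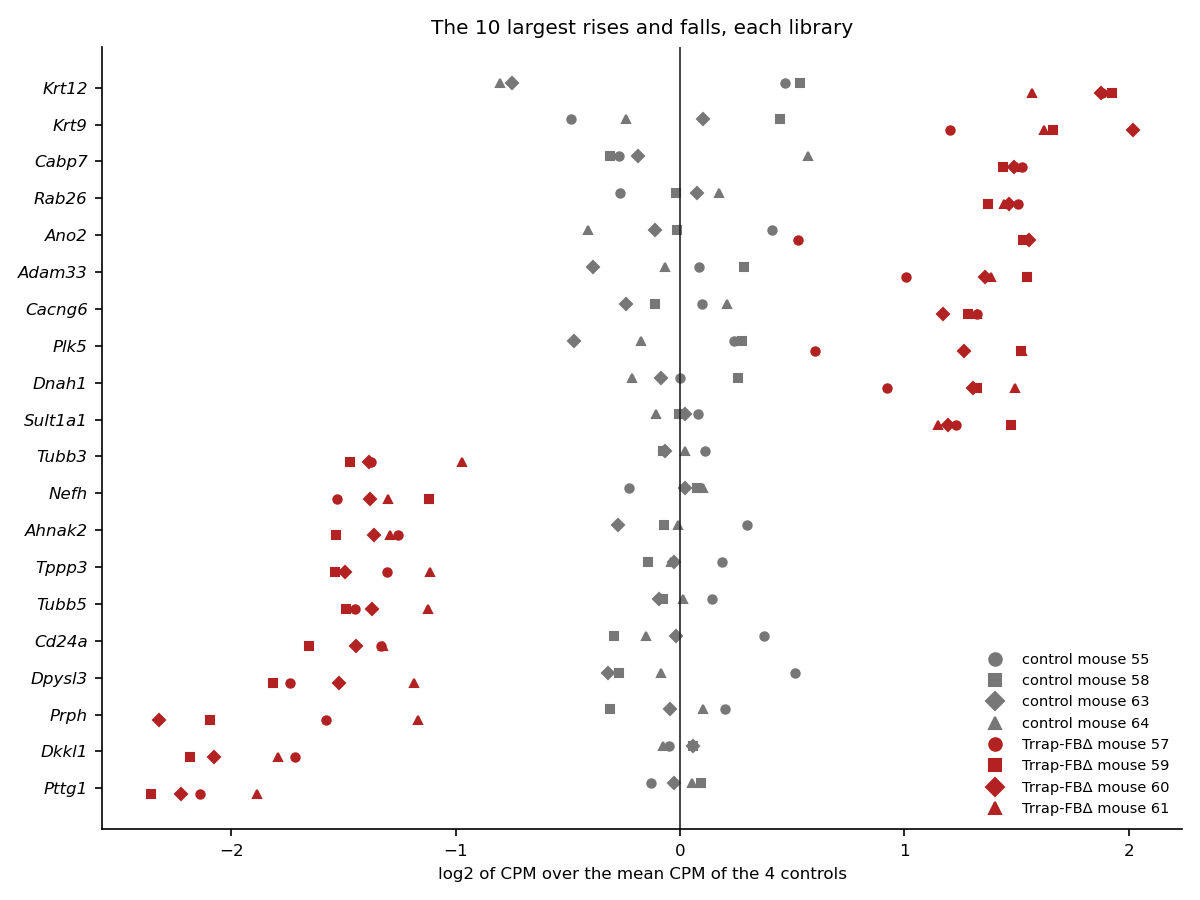
Expression of the 10 largest rises and the 10 largest falls in each cortical library, as log2 of CPM over the mean CPM of the 4 controls. Grey symbols are control mice and red symbols Trrap-FBΔ mice, 1 shape per mouse. Red and grey symbols do not overlap in any row because only genes with non-overlapping groups were eligible. Ano2, with 2.18 against 2.01 CPM, has the narrowest gap.

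Genes of cell division fell together. Of 24 mitosis genes tested (of 25 listed), 21 fell and 0 rose, with a median log2 fold change of -0.65. Groups were separate for 21 of them. Mki67, the proliferation marker of the chromosome surface, was at 27.1, 28.4, 25.7 and 24.3 CPM in controls and at 12.2, 13.7, 15.2 and 14.9 CPM in Trrap-FBΔ. Top2a, the topoisomerase of dividing cells, was at 23.0, 22.7, 21.4 and 20.5 CPM in controls and at 12.1, 10.5, 11.8 and 12.5 CPM in Trrap-FBΔ. Both were thus at little more than 50% of control (53.1% and 53.7%), and Prc1, a bundling protein of the midzone spindle, was at 54.1%. The DNA replication list moved less, with 2 of 40 genes higher, 7 lower and a median of -0.05. Its falls included Rrm2, a subunit of ribonucleotide reductase (log2 fold change -0.62, standard error 0.082), and the helicase subunit Mcm2 (-0.45, standard error 0.083). Myc, the growth-promoting transcription factor, was lower (17.5 ± 1.19 against 10.8 ± 1.31 CPM, SD, n = 4 each). Of the E2F, pocket protein and Myc network list, 9 of 25 genes fell and 2 rose. In whole tissue, fewer cells of a type and less RNA per cell cannot be told apart, here and for all other groups.

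The p53 target list went both ways, with 5 genes higher and 5 lower of 24 tested. Ptprv, a phosphatase gene induced by p53, was at 0.777, 1.88, 1.38 and 1.04 CPM in controls and at 3.50, 3.40, 4.09 and 4.94 CPM in Trrap-FBΔ. Pmaip1, which encodes the proapoptotic protein Noxa, rose as well (2.13 ± 0.332 against 4.24 ± 0.85 CPM). Cdkn1a, which encodes the cell cycle inhibitor p21, fell (25.4, 28.2, 21.3 and 23.0 CPM against 12.2, 12.7, 13.5 and 15.0 CPM). The count of lower p53 targets was 2 without control mouse 64, and 3 without mouse 55, 58, 57, 60 or 61.

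Promoter sequences of the mitosis genes are shown because these genes fell as a group, and the 2 windows are those of the members with the smallest p. Each window runs from 250 bases before to 50 bases after the RefSeq start site on the gene's strand (GRCm38.p6). Capitals mark matches on either strand to 3 motifs. The first is the GC box, with the letters GGGCGG. Another is the CCAAT box. The last is TTTGAA, the core of the cell cycle homology region. The Pttg1 window lies at chr11:43425932-43426231, minus strand, and the Top2a window at chr11:99024140-99024439, minus strand.
Pttg1: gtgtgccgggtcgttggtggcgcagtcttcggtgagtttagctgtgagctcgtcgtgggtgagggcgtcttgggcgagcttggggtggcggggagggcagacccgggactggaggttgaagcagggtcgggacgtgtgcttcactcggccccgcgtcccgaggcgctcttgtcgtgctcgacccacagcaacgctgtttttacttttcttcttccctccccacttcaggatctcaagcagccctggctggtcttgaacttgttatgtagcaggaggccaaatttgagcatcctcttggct
Top2a: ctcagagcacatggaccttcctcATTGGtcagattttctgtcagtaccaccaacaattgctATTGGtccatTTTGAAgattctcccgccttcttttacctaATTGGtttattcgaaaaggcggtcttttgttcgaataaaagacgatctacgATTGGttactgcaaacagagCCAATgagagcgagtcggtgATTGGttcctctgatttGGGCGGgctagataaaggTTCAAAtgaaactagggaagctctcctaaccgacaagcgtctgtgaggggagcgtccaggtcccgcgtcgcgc
The Top2a window held 9 matches, 6 of them to the CCAAT box, and the Pttg1 window 0. The Pttg1 window follows the RefSeq start site and lies wholly within the gene span given above, so that it holds no sequence upstream of the annotated 5' end, and its lack of matches does not describe that region. Over the 23 windows of 22 mitosis genes in the table, 87% held CCAAT and 73.9% held TTTGAA, against 37.2% and 12.4% of the 16396 windows of all genes tested. For GGGCGG the shares were 78.3% and 57.8%. For CCAAT, promoters of DEGs as a whole were much like those of all genes tested, with 36.5% of the windows of higher and 35.8% of those of lower DEGs. GGGCGG was more frequent in lower DEGs, in 63% of their windows, than in higher DEGs (55.4%) or all genes tested (57.8%). On the coding strand only, these shares were 43.6%, 35.3% and 38.8%. A match to letters is a description of the window and shows no bound factor.

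Cholesterol synthesis was the list with the highest share of falls. Of its 20 enzymes, 19 fell and 0 rose, with a median log2 fold change of -0.45, and all 20 estimates were below 0. The exception to the call was Idi1, at -0.29. Hmgcs1, the synthase of an early step of the pathway, was at 1021, 873, 1016 and 929.8 CPM in controls and at 641, 543, 573 and 594 CPM in Trrap-FBΔ. Cyp51 (chromosome 5, 4081145 to 4104746), the lanosterol demethylase, was at 152, 153, 154 and 150.2 CPM in controls and at 109, 98.6, 104 and 97.6 CPM in Trrap-FBΔ. Control values of Cyp51 differed among themselves by less than 5 CPM, so that a fall to 67.1% stood far outside the spread (standard error of the log2 fold change 0.045). On the log2 scale Hmgcs1 changed by -0.71, and Sqle, the squalene epoxidase of the middle of the pathway, by -0.53. The number of lower DEGs in the list was 18 or 19 when any 1 library was left out. The sterol exporter gene Abcg1 rose (log2 fold change 0.39, standard error 0.078). Of 18 genes of sterol uptake, export and sensing, 6 fell and 5 rose, and 3 rose without control mouse 58 or Trrap-FBΔ mouse 60.

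The 2 sterol windows shown are those of the members with the smallest p among the 15 genes of the list that have a window in the table. Capitals mark, on either strand, the GC box, the CCAAT box and a sterol regulatory element. The letters of this element are TCACCCCAC. The Cyp51 window lies at chr5:4104648-4104947, minus strand, and the Hmgcs1 window at chr13:119690101-119690400, plus strand.
Cyp51: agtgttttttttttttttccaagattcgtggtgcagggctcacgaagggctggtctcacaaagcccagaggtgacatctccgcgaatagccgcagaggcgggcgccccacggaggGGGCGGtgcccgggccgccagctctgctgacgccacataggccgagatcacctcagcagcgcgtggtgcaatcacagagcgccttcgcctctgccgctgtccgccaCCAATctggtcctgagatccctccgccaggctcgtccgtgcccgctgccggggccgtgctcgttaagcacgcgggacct
Hmgcs1: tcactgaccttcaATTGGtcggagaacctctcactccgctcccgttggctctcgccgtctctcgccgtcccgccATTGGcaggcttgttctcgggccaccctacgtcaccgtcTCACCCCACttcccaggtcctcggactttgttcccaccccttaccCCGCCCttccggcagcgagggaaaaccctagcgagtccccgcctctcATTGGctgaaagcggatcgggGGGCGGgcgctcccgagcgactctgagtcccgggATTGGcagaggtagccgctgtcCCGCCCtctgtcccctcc
The sterol element was found in 1 of 18 windows of the list (5.56%), that of Hmgcs1, and in 0.567% of the windows of all genes tested. CCAAT was in 77.8% and GGGCGG in 83.3% of the 18 windows. High shares were not limited to lists that fell. The circadian clock list, where more genes rose than fell, held CCAAT in 73.9% and GGGCGG in 82.6% of 23 windows. Among immediate early genes, which also rose more often, the shares were 22.2% and 51.9% of 27 windows. With the coding strand only, CCAAT was in 38.9% of the sterol and 65.2% of the mitosis windows, against 20.9% of the windows of all genes tested.

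Fatty acid synthesis genes fell too, with 14 of 22 lower, 3 higher and a median of -0.22. The acyl-CoA synthetase gene Acsl5 was at 87.8, 80.5, 85.1 and 88.9 CPM in controls and at 53.7, 52.6, 53.7 and 52.8 CPM in Trrap-FBΔ. The desaturase gene Scd1 was at 64% of control, and the malic enzyme gene Me1, a source of NADPH, at 68.7%. Srebf1, a transcription factor for lipid genes, rose slightly (23.8 ± 0.906 against 28.5 ± 2.39 CPM, SD, n = 4 each).

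**Figure D3:**
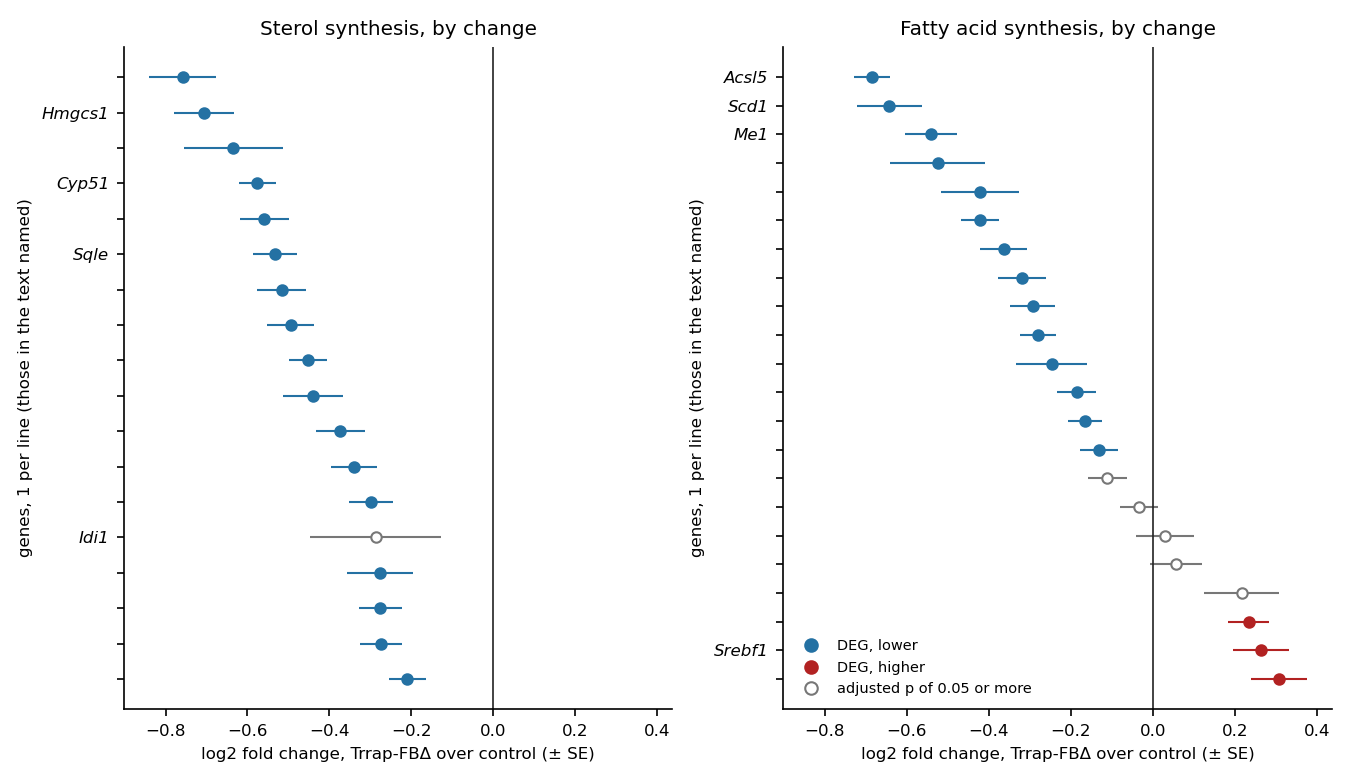
Log2 fold change in the Trrap-FBΔ cortex over control for 18 of the 20 genes of sterol synthesis and the 22 of fatty acid synthesis, ordered by size, with standard errors as bars. Filled symbols are DEGs, and genes named in the text are labelled. All 18 sterol genes lie left of 0 and 17 are filled, whereas 14 fatty acid genes are filled on the left and 3 on the right.

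In central carbon metabolism, single isoenzymes moved in opposite directions. The phosphofructokinase gene Pfkp was at 755, 640.5, 636 and 660.4 CPM in controls and at 334, 343, 347 and 395 CPM in Trrap-FBΔ, whereas Pfkl rose from 93.1 ± 11.3 to 133 ± 7.76 CPM. The muscle-type phosphoglycerate mutase gene Pgam2 rose with a log2 fold change of 1.09. Of 20 glycolysis genes 9 fell and 2 rose. In the tricarboxylic acid cycle list 6 of 24 fell and 1 rose, with the largest fall in the cytoplasmic isocitrate dehydrogenase Idh1 (146, 114, 120.0 and 119.5 CPM against 79.0, 67.5, 71.6 and 71.9 CPM). The respiratory chain moved little. Of 72 nuclear genes 4 rose and 7 fell, with a median of 0.03, although the count of rises was 11 without control mouse 63 and 2 without mouse 58, 64 or 57, and that of falls 3 without mouse 59 or 60. None of the 7 mitochondrially encoded genes tested passed the threshold.

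Lists of protein synthesis, folding and breakdown differed from each other. Of 79 cytoplasmic ribosomal protein genes 14 fell and 1 rose, a share of falls (17.7%) close to that of all genes, and this count moved between 6, without Trrap-FBΔ mouse 59, and 26, without mouse 57. It was 7 without mouse 61 and 8 without mouse 55, 63 or 60. Rplp0, of the ribosomal stalk, fell to 64.6% of control. Of 30 nucleolar assembly genes 10 fell and 1 rose, and 5 fell without mouse 64 or 59 and 6 without mouse 55. The proteasome list had 1 rise and 1 fall among 32 genes. Among heat shock and chaperone genes 1 of 20 rose and 6 fell, and among unfolded protein response genes 2 of 20 rose and 6 fell, a share of falls of 30% in each. Hspa1b, an inducible Hsp70 gene, was the heat shock gene that rose, at 0.318, 0.295, 0.25 and 0.298 CPM in controls and 0.499, 0.857, 0.783 and 0.66 CPM in Trrap-FBΔ, although its reads can be uncertain because Hspa1a is a near-identical copy. Atf4, the transcription factor of the integrated stress response, fell to 77.1% of control. Of 33 lysosome and proton pump genes, 11 rose and 3 fell, among the rises Atp6v1c1, a subunit of the vacuolar proton pump (log2 fold change 0.36, standard error 0.055). The number of rises was 5 without control mouse 55 and 6 without mouse 58, 64 or 61.

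The complexes that Trrap belongs to showed mostly small changes in their other subunits, although log2 fold changes ran from -0.61 to 0.50. Of 39 SAGA and TIP60 genes 13 rose and 4 fell, with a median of 0.04, and 7 rose without control mouse 58. Epc2, a TIP60 subunit, was at 58.5, 56.6, 56.6 and 59.3 CPM in controls and at 72.1, 79.8, 73.6 and 69.2 CPM in Trrap-FBΔ. Yeats4 and Dmap1, further TIP60 subunits, rose by 0.29 and 0.32 on the log2 scale. The falls included Usp22, the ubiquitin protease of SAGA (455, 413, 392 and 448 CPM against 245, 279.6, 274 and 324 CPM), and its partner Atxn7l3 (log2 fold change -0.36). Of 18 deacetylase and sirtuin genes 2 rose and 2 fell. Among Sp and Klf transcription factors 7 of 21 fell and 2 rose, with the largest fall in Klf8, at 52.3% of control.

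Circadian clock genes were the list with the highest share of rises. Of 20 genes 10 rose and 1 fell, with a median log2 fold change of 0.17. Clock, the core activator, was at 126, 135, 138 and 129.6 CPM in controls and at 171, 171, 166 and 152 CPM in Trrap-FBΔ. The period gene Per1 was at 44.0, 55.3, 49.1 and 49.0 CPM in controls and at 59.9, 65.4, 61.5 and 62.7 CPM in Trrap-FBΔ. Tef, a clock output factor, rose to 127% of control. Immediate early genes, induced by neuronal activity, moved the same way, with 7 of 20 higher and 1 lower. Groups were separate for 4 of these 20 genes, a smaller share than the 32.7% over all genes tested. Nr4a1 was at 40.9, 44.4, 40.7 and 40.2 CPM in controls and at 70.4, 55.5, 54.1 and 57.3 CPM in Trrap-FBΔ, and Arc rose from 33.9 ± 1.96 to 44.1 ± 5.39 CPM. Jun fell to 71.8%. The sources used here give no hour of tissue collection, with which both lists are known to vary, and its part in these results was not tested. Of 23 interferon and antigen presentation genes 6 rose and 2 fell. Ifit1 and Isg15 rose at levels near or below 1 CPM, with Isg15 at 0.247, 0.568, 0.425 and 0.545 CPM in controls and at 1.27, 0.723, 1.06 and 0.86 CPM in Trrap-FBΔ, and Irf1 rose from 3.71 ± 0.542 to 5.90 ± 0.316 CPM.

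Further families that rose were recognised only after their values were seen, so their counts describe them and support nothing further. Of 46 genes of intraflagellar transport, the BBSome and the ciliary transition zone, which build and gate the primary cilium, 25 rose and 2 fell, with a median of 0.19. Evc2 (chromosome 5, 37338499 to 37425055), a ciliary protein of hedgehog signalling, was at 6.57, 6.27, 5.90 and 7.31 CPM in controls and at 14.8, 15.8, 14.1 and 14.6 CPM in Trrap-FBΔ. Gli1, a hedgehog target and effector, rose with a log2 fold change of 0.77 (standard error 0.15), although it was the only riser among 31 Notch, hedgehog and BMP genes, of which 10 fell. That count of falls was 4 without mouse 59 or 60, 5 without mouse 58, 64 or 61 and 6 without mouse 55.

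Coenzyme Q synthesis genes rose in 8 of 11 cases and fell in 0, and in 5 cases without control mouse 63 or Trrap-FBΔ mouse 61. Coq8a (chromosome 1, 180165238 to 180199602), an atypical kinase of this pathway, was at 11.3, 12.8, 13.0 and 12.7 CPM in controls and at 24.7, 24.0, 22.7 and 22.3 CPM in Trrap-FBΔ. Coq7, a hydroxylase of the same pathway, rose with a log2 fold change of 0.66. Of 17 peroxins, which assemble peroxisomes, 7 rose and 0 fell, with the largest rise in the import receptor gene Pex7 (log2 fold change 0.60, standard error 0.051). Of 30 Mediator subunits, which link transcription factors to RNA polymerase II, 11 rose and 0 fell, and 7 rose without control mouse 64. Mitochondrial ribosomal protein genes rose in 16 and fell in 5 of 77 cases. Their share of rises, 20.8%, was not far above the 15.7% over all genes tested, and 13 rose without control mouse 64. Falls numbered 2 without mouse 64, 59, 60 or 61 and 3 without mouse 63. Zinc finger (Zfp) genes, the largest family looked at, showed no such lean, with 43 of 370 higher and 56 lower, and 28 higher without control mouse 58 or 64.

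**Figure D4:**
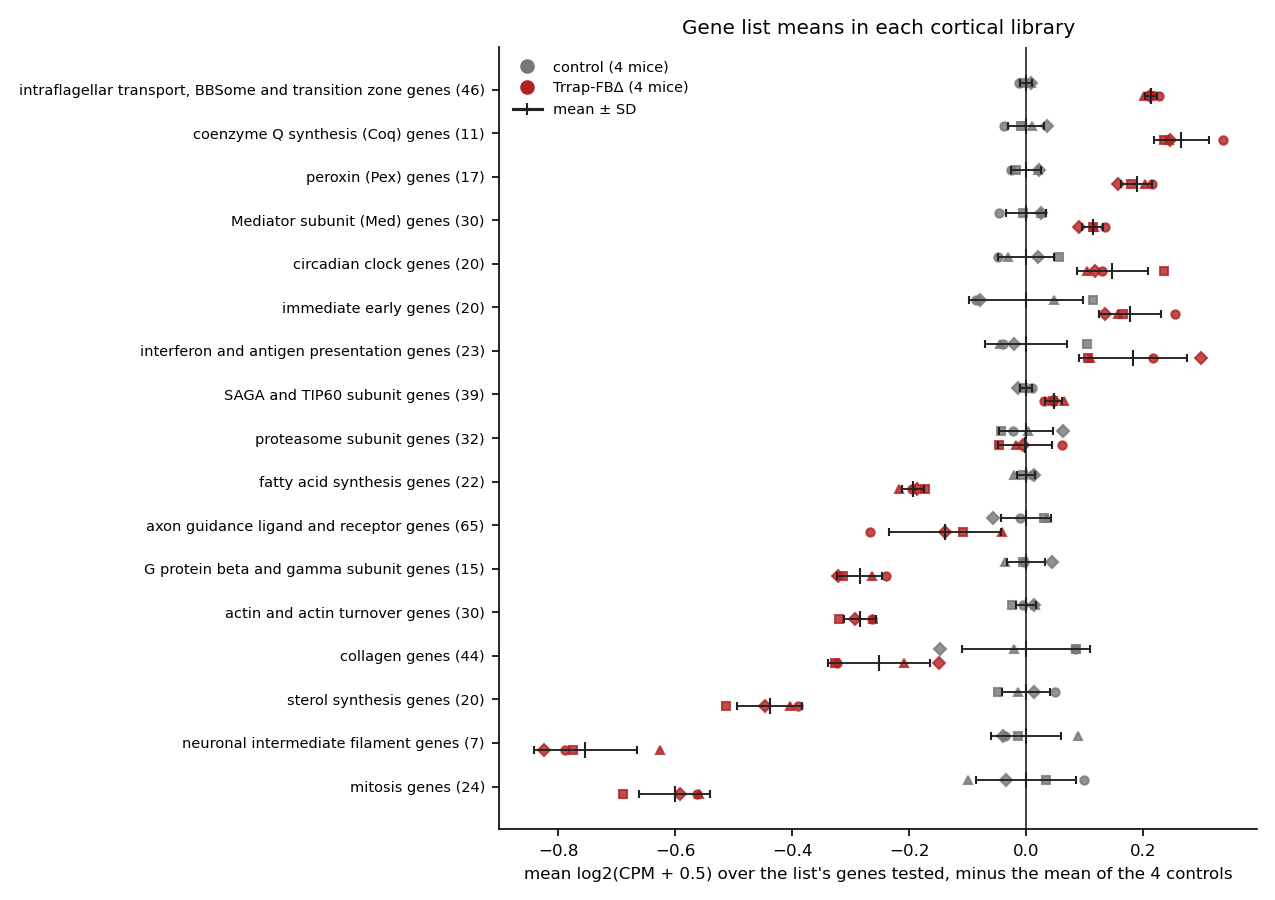
Mean log2(CPM + 0.5) over the genes tested of 17 lists and families in each cortical library, minus the mean of the 4 controls, with controls in grey, Trrap-FBΔ in red and bars for mean ± SD. The red symbols of the cilium and coenzyme Q families lie wholly right of the grey ones, those of the sterol, actin, intermediate filament and mitosis lists wholly left, and those of the proteasome list overlap with the controls.

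Noncoding transcripts rose more often than they fell, which was also noticed after the values were seen. Of 592 antisense genes 20.1% rose and 6.08% fell, of 745 lincRNA genes 18% rose and 8.86% fell, and of 90 lncRNA genes with a bidirectional promoter 24 rose and 0 fell. These genes are mostly expressed at low levels. Below the median CPM, 19.7% of 1363 genes of the 3 classes rose and 6.31% fell, whereas 14.4% of 6165 protein-coding genes rose and 14.2% fell. Levels within that range were not matched, and over all genes of the lowest CPM bin 11.7% rose and 4.43% fell. The part of expression level in this difference was not tested.

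Outside the microtubule genes, most genes of the actin, intermediate filament and growth cone lists were lower in the whole tissue. Of 30 genes of actin and its turnover 19 fell and 1 rose, with a median log2 fold change of -0.29, and 19 fell whichever library was left out. Flna, the actin crosslinker filamin A, was at 344, 328, 299 and 302 CPM in controls and at 161, 146, 163 and 173 CPM in Trrap-FBΔ. The cytoplasmic actin gene Actb was at 662, 749, 688 and 721 CPM in controls and at 421, 411, 433 and 467 CPM in Trrap-FBΔ. The actin monomer binder Tmsb10 fell to 45.6% of control. All 7 intermediate filament genes had estimates below 0 and 6 fell. The neurofilament gene Nefm was at 198, 210.5, 229.6 and 232 CPM in controls and at 95.4, 107, 103 and 111 CPM in Trrap-FBΔ, and Nes, of neural progenitors and young glia, fell to 64.7%. Of 25 immature neuron and growth cone genes 15 fell and 2 rose. Gap43, a growth cone protein, was at 823, 654, 676 and 723 CPM in controls and at 354, 337, 375 and 412 CPM in Trrap-FBΔ.

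Guidance and matrix genes followed. Of 65 axon guidance ligands and receptors 26 fell and 2 rose, and 16 fell without Trrap-FBΔ mouse 60. Plxna3, a semaphorin receptor, was at 92.5, 83.3, 71.4 and 84.4 CPM in controls and at 47.9, 51.1, 49.1 and 59.8 CPM in Trrap-FBΔ. Robo3, a Slit receptor family member, fell to 64% of control, with control mouse 55 (58.3 CPM) well below the other controls. Of 54 clustered protocadherins tested 17 fell and 2 rose. Reads of the alpha and gamma clusters can be uncertain, since the genes of each of these clusters share 3' exons. Pcdha12 (log2 fold change -0.90) and Pcdhgc5 (0.57), of these clusters, moved in opposite directions. Of 44 collagen genes, a family chosen after its values were seen, 18 fell and 1 rose. Col24a1 was at 26.7, 33.3, 32.5 and 32.5 CPM in controls and at 13.9, 11.5, 14.8 and 13.2 CPM in Trrap-FBΔ, and Col15a1, of basement membranes, fell to 50.3%.

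Genes of signalling and excitability fell more often than they rose, by moderate amounts. Of 15 G protein beta and gamma subunits 8 fell and 0 rose, and 5 fell without Trrap-FBΔ mouse 60. Gng4 was at 184, 195, 170.1 and 198 CPM in controls and at 81.3, 86.4, 92.5 and 87.7 CPM in Trrap-FBΔ. Of 64 potassium channel genes 25 fell and 6 rose, with 3 rises without mouse 59 or 61. The K2P channel gene Kcnk10 fell to 64.6% of control, and Kcnip3, an accessory subunit, rose to 128%. Of 34 sodium, calcium and HCN channel genes 13 fell and 3 rose, the rises numbering 1 without mouse 64 and 5 without mouse 57. Hcn3, a pacemaker channel, was at 35.6, 34.6, 35.3 and 36.7 CPM in controls and at 17.7, 17.2, 16.3 and 21.2 CPM in Trrap-FBΔ. Among receptor genes 7 of 24 glutamate receptors fell and 2 rose, or 0 rose without control mouse 63 or Trrap-FBΔ mouse 60, with Grm8 at 64.1% of control, and 7 of 21 genes of GABA transmission fell and 0 rose, with Gabrg3 at 71.8%. Of 41 synapse organizer genes 13 fell and 1 rose, and 7 fell without control mouse 64.

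The vesicle release list was mixed, with 9 of 38 genes lower and 3 higher, and 5 higher without Trrap-FBΔ mouse 57. Cplx1, a regulator of SNARE-driven fusion, was at 362, 416, 428 and 431 CPM in controls and at 271, 289, 265 and 283 CPM in Trrap-FBΔ. Syt12, a synaptotagmin, rose with a log2 fold change of 0.56 (standard error 0.13). Neuropeptide genes moved singly. Adcyap1, which encodes PACAP, was at 28.5, 29.7, 31.3 and 30.3 CPM in controls and at 17.0, 17.1, 17.3 and 18.4 CPM in Trrap-FBΔ. The interneuron peptides Sst and Cort rose to 134% and 168% of control. In the Wnt list 10 of 37 genes fell and 4 rose, and 6 fell without mouse 59, 60 or 61. Wnt10b, a Wnt ligand, was at 0.459, 0.84, 0.55 and 0.521 CPM in controls and at 2.11, 2.62, 2.15 and 1.28 CPM in Trrap-FBΔ, and Wnt7a fell from 17.3 ± 1.13 to 12.3 ± 0.967 CPM.

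Markers of microglia, vessels and the oligodendrocyte lineage were lower. Of 16 microglia genes 13 fell and 0 rose, with a median log2 fold change of -0.35, and between 12 and 14 fell when any 1 library was left out. The fractalkine receptor gene Cx3cr1 was at 55.2, 55.1, 59.5 and 53.2 CPM in controls and at 45.3, 33.9, 40.5 and 41.4 CPM in Trrap-FBΔ. P2ry12, a purinergic receptor of resting microglia, was at 92.1, 79.7, 87.4 and 73.4 CPM in controls and at 74.3, 50.3, 57.9 and 46.9 CPM in Trrap-FBΔ, with mouse 57 overlapping with the controls. Tmem119 and Csf1r, further microglia markers, fell to 69.3% and 79.2% of control. Of 17 endothelial and mural genes 11 fell and 0 rose (median -0.33), among them the VEGF receptor gene Kdr (52.3, 51.6, 42.1 and 49.1 CPM against 27.4, 34.7, 36.2 and 33.2 CPM). Groups were separate for 6 of these 17 genes, a share close to the 32.7% over all genes tested, and 8 fell without mouse 58, 59 or 61. The endothelial genes Pecam1 and Flt1 fell to 77.4% and 78.8%, and the tight junction gene Cldn5 fell to 85.1% but was not a DEG without Trrap-FBΔ mouse 59. Of 13 oligodendrocyte precursor genes 9 fell and 0 rose (median -0.32). Pdgfra, the growth factor receptor of these precursors, was at 165, 144, 148 and 141 CPM in controls and at 110.4, 111, 108 and 114 CPM in Trrap-FBΔ. The precursor proteoglycan gene Cspg4, which is also counted in the endothelial and mural list, fell to 77.4%.

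Of 16 genes of myelinating oligodendrocytes 11 fell and 0 rose, with a median of -0.52, yet groups were separate for only 2 of them. The myelin basic protein gene Mbp was at 1044, 1619.7, 1496 and 909.7 CPM in controls and at 1085, 900.3, 812 and 663 CPM in Trrap-FBΔ. Control mice 58 and 63 were high, and control mice 55 and 64 lay within the range of the mutants. Mag, a myelin adhesion protein gene, fell to 61.7% of control. The same 2 controls were the highest for the striatal neuron marker Ppp1r1b, at 50.0, 171, 178 and 56.1 CPM in controls and 69.7, 69.1, 99.1 and 100.4 CPM in Trrap-FBΔ. Of 15 striatal projection neuron genes 2 fell and 0 rose, and for Drd1, Drd2, Adora2a and Ppp1r1b the groups overlapped. The part of striatal tissue in the myelin result was not tested. With any 1 of mice 58, 63, 59, 60 or 61 left out, 4 myelin genes were lower DEGs in place of 11. In each of these 5 settings Mbp and Mog, DEGs at 68.3% and 63.9% of control, were no longer called.

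Neuron and astrocyte lists held smaller shares of falls than the microglia, vessel and oligodendrocyte lists. These shares were 23.1% for upper-layer, 28.6% for deep-layer, 22.2% for astrocyte and 0% for interneuron genes, against 17.6% over all genes tested. Rises made up 22.2% of the astrocyte genes, against 15.7% over all genes tested. Of 13 upper-layer genes 3 fell and 0 rose, and of 14 deep-layer genes 4 fell and 0 rose, or 2 without mouse 58, 63 or 57. The neuron genes Slc17a7 and Neurod6 and the deep-layer factor Tbr1 did not pass the threshold (edgeR adjusted p = 0.37, 0.20 and 0.19). Of 18 interneuron genes Sst alone rose and 0 fell, and Gad1 and Gad2, which make GABA, had log2 fold changes of 0.09 and 0.16 with overlapping groups, as did Slc32a1, the vesicular GABA transporter (-0.17). Astrocyte genes went both ways, with 4 higher and 4 lower of 18. The water channel gene Aqp4 fell from 292 ± 22.2 to 215 ± 22.2 CPM (SD, n = 4 each), and the connexin gene Gjb6 rose to 132% of control. Gfap rose to 122% but was not a DEG without control mouse 63 or 64. Aldh1l1, an astrocyte enzyme gene, fell to 89.7% but was not a DEG without any 1 of mice 55, 58, 63, 64, 59 or 60, and the glutamate transporter gene Slc1a3 was at 106% without passing the threshold. The astrocyte counts were 2 falls without mouse 55, 58, 64 or 59, 2 rises without mouse 63, 57 or 59 and 1 rise without mouse 64. Blood and choroid plexus lists held 0 DEGs among 6 and 11 genes tested, but 4 blood genes fell without Trrap-FBΔ mouse 57 and 1 choroid plexus gene rose without control mouse 58.

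**Figure D5:**
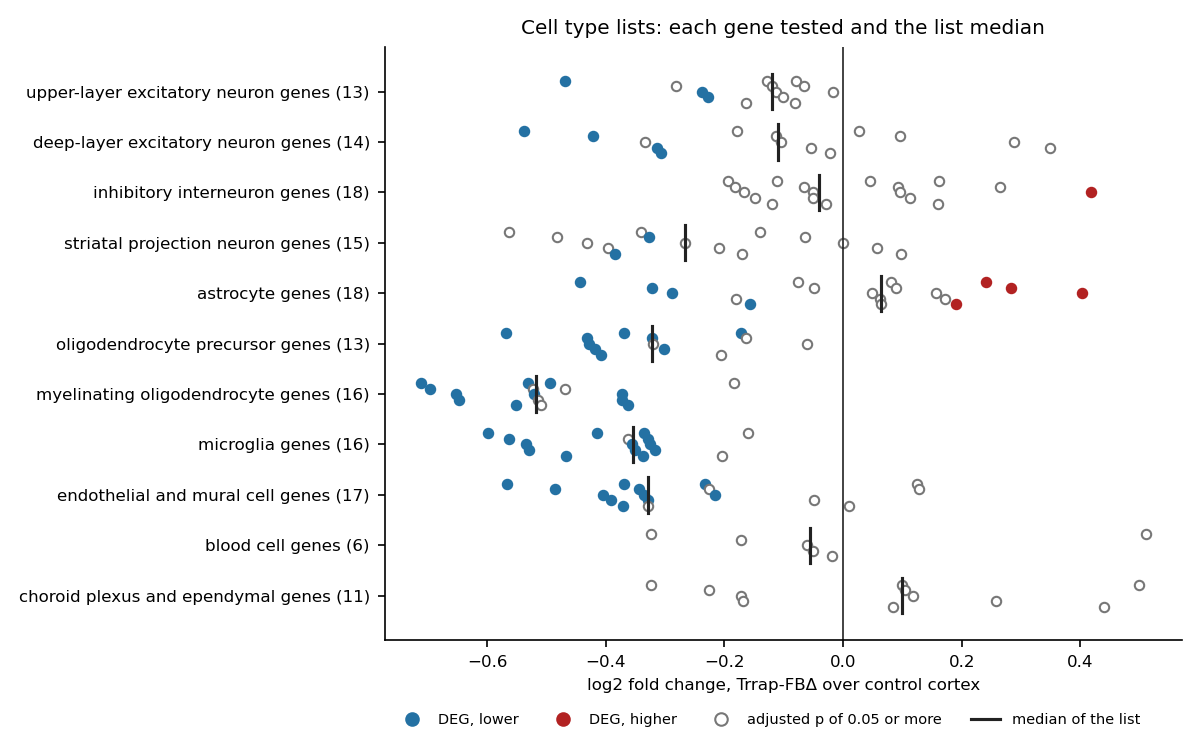
Log2 fold change in the Trrap-FBΔ cortex over control of each gene tested in 11 cell type lists, with the number of genes in parentheses, DEGs as filled symbols and the list median as a black bar. Microglia, oligodendrocyte precursor and endothelial lists lie mostly left of 0 with medians of -0.35, -0.32 and -0.33, and the interneuron list is centred near 0.

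An interaction term, fitted to the 16 cortical and striatal libraries together, asked whether the cortical change differed from the striatal one. The term passed the threshold for 85 of 19438 genes tested, or 0.437%. Among the genes named above it passed for Rab26, Tppp3 and Hcn3, whose changes were smaller in the striatum. For Rab26 the striatal log2 fold change was lower by 0.84 than the cortical one (edgeR adjusted p = 0.017). The count was 2 without mouse 59 and 151 without mouse 65, which gave striatum only, so that it depended on single mice. It was 48, 25, 40, 52, 10 and 34 without mouse 55, 57, 58, 60, 61 and 63. With the mouse as a random block, since 7 of 9 mice gave both tissues, the count was 303 genes, and 6 further genes named here passed. These were Evc2 (limma-voom adjusted p = 0.022 with the block, edgeR adjusted p = 0.056 without), Kcnip3 (0.024 with the block), Adam33 (0.028), Cort (0.031), Cacng6 (0.034) and Slc17a7 (0.039). Neither fit called a difference between tissues for Pttg1, Dkkl1 or the members named of the sterol, clock and microglia groups, although a value that misses the threshold does not show that the tissues responded alike.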

How the data were processed

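Poly(A) RNA-seq of whole cortex from 4 control and 4 Trrap-FBΔ mice was analysed. The values were the counts per gene that the authors deposited, made from reads demultiplexed with bcl2fastq 1.8.4, aligned to GRCm38 with STAR 2.5.4b and counted with featureCounts 1.5.0 per the submitters' notes. Totals ran from 28743866 to 48761429 counts per library, which limits precision mostly for genes with few counts.

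Genes were filtered with filterByExpr, scaled by trimmed mean of M values and tested with edgeR 4.0.16 (quasi-likelihood F test, group as the only term, Benjamini-Hochberg adjustment over all genes tested, R 4.3.3). CPM, means and SDs used the same scaling. The labels say that each library is a different mouse within a tissue, and no 2 libraries agreed within sampling noise. On simulated counts 95% of 200 genes changed by 1 on the log2 scale were recovered among 18017 genes, with 3.06% false calls. The interaction with tissue was fitted over all 16 libraries. There 83% of such genes were recovered among 18495, with 8.79% false calls. Both simulations used the same dispersion for every gene and drew the libraries of a mouse independently. Their changes were fewer and larger than those in the data, where the median log2 fold change was 0.345 for higher and -0.344 for lower DEGs. These shares therefore describe the simulations and not the calls reported here. Within the cortex no mouse gave both groups, so no pairing was possible. Between tissues, samples of a mouse were tied by its number in the labels (correlation within mice 0.208 in limma 3.58.1).

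The comparison and the lists were chosen with earlier results of these data known. Named genes were Trrap, the 10 largest rises and falls among protein-coding DEGs with at least 100 mean counts and separate groups, up to 4 DEGs per list and direction with the smallest p, and cell type markers. Hmgcs1, Idi1 and the genes of the coenzyme Q, cilium, peroxin and collagen families were chosen after values were seen. Between the lists, 29 symbols were shared. Alternatives were DESeq2 1.42.0, limma-voom, other scalings and filters, sex as a covariate, females only, a fold threshold of 1.2, and leaving out each library. Promoter windows came from RefSeq (GRCm38.p6). Some genes of these lists are not reported here by name.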

Additional observations from a re-analysis of the deposited data

Results flagged for a closer look

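For the genes named, 238 groups of 4 libraries were examined for 1 library far from the other 3, and 9 groups held one, where chance gives about 1 in 20. Among controls, mouse 55 was low for Col24a1 (26.7 CPM, group median 32.5), Coq8a (11.3, median 12.8) and Robo3 (58.3, median 81.5). Control mouse 58 was high for Nr4a1 (44.4 CPM, median 40.8), and control mouse 64 was high for Cabp7 (16.1 CPM, median 9.24). In Trrap-FBΔ, mouse 57 was low for Ano2 (2.18 CPM, median 4.38). Trrap-FBΔ mouse 61 was low for Krt12 (9.50 CPM, median 11.7) and high for Kcnk10 (23.5, median 22.7) and Tubb3 (348, median 262).

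The change differed between the tissues for 3 named genes by the interaction term. Striatal minus cortical log2 fold changes were 0.58 for Hcn3 (edgeR adjusted p = 0.035), -0.84 for Rab26 (0.017) and 0.75 for Tppp3 (0.032). The false share of the interaction test on simulated counts was 8.79%. Those counts were drawn without the tie between samples of a mouse, so that this is not the false share for these genes.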

How the results depend on the processing

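The number of cortical DEGs (6090, with 2872 higher and 3218 lower) stayed within 1.5 times under DESeq2, limma-voom, the other scalings and filters, sex as a covariate and the fit over all 16 libraries. With female mice only (2 controls and 3 Trrap-FBΔ, fewer samples) it was 2216 (926 higher, 1290 lower), and against a fold of 1.2, a stricter hypothesis, 1381 (648 higher, 733 lower). It was 4734 to 5726 when each library was left out in turn, with 2291 to 2809 higher and 2417 to 2938 lower. No gene called in both the reported fit and an alternative changed direction. The number of genes whose change differed between tissues was 85, and 415 with DESeq2, 64 with sex as a covariate, 303 with the mouse as a replicate block and 2 to 151 when each mouse was left out; the cause was not tested. The block entered only the tissue comparison, since no mouse pairs the 2 cortical groups. For the 119 genes named, leaving out a library kept 931 calls, lost 19 and gained 2, and the other alternatives kept 1127, lost 58 and gained 2. Trrap counts did not check the genotype labels, and sexes were unequal between groups. Detection by direction and expression level was not measured.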
